A study of Homo sapiens with 24 samples.

Results

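The TGF-beta and SMAD feedback genes described here are SMAD7, SMAD6, SMAD3, SKIL, TGIF1, ID1, ID2, ID3, TGFB1 and TGFB2, 10 of the 58381 gene IDs in the expression table. They were taken by symbol, with no threshold on their values, and their levels are given in every library. RNA came from HaCaT, an immortalised but non-malignant human keratinocyte line, in which clones transduced to overexpress hsa-miR-186, a microRNA, were set against passage-matched clones transduced with an empty vector. Per the labels, each construct had 3 individual clonal lines, kept with 100 nM or 0 nM inorganic arsenic (iAs) and harvested at weeks 29 and 12. The 8 groups of 3 libraries are therefore miR-186 clones in 100 nM or 0 nM iAs and vector clones in 100 nM or 0 nM iAs, each at week 29 and at week 12. All groups share the HaCaT background and a transduced clone, and no group was left untransduced. The labels call the 3 libraries of a group independent biological triplicates and do not say which clone a replicate number is, so p-values measure the spread between these libraries.

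TGF-beta ligands bind serine/threonine kinase receptors, which phosphorylate SMAD2 and SMAD3. These join SMAD4 and enter the nucleus, while the related BMP ligands act through SMAD1, SMAD5 and SMAD9. The pathway induces its own brakes: SMAD6 and SMAD7 block receptor signalling, and SKIL and TGIF1 repress SMAD-bound genes. The ID proteins, classic BMP targets, bind basic helix-loop-helix transcription factors and keep them off DNA. In epidermis TGF-beta restrains keratinocyte proliferation, and ID genes are associated with the undifferentiated, dividing state.

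Levels are FPKM, fragments per kilobase of transcript scaled to sequencing depth, so that they can be compared between genes of different length. Differences are log2 differences ± standard error after adding 0.5 FPKM, log2(FPKM + 0.5), which shrinks the apparent change of weakly expressed genes. A gene is said to have risen or fallen where limma's adjusted p, over the 14228 genes tested, was under 0.05, and all 10 genes passed the filter of a mean of at least 0.5 FPKM. Sums of FPKM per library ran between 712797 and 905683, and without read counts the absolute depth is unknown. Keratinocyte genes were high in all 24 libraries, KRT5 at 359 to 1866 FPKM and TP63 at 49.2 to 88.6 FPKM. Of genes of other cell types, TYR was listed at 0 throughout, and COL1A2, PDGFRA, PECAM1 and PTPRC did not exceed 0.208 FPKM. CDH5 reached 20.6 FPKM, LUM 17.2 FPKM and DCN 78.0 FPKM. In these bulk libraries, fewer cells that express a gene and less RNA per cell cannot be told apart.

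SMAD7 carries the main result and SMAD6 is its closest relative here, so 250 bases before a start of each are shown, from RefSeq (GRCh38.p14), 5′ to 3′ on the gene's strand. The SMAD7 stretch, chr18:48949334-48949583 on the minus strand, precedes an inner start of the gene, and capitals mark GTCTG, the reverse complement of the CAGAC core bound by SMAD3 and SMAD4, with its first base at -193 relative to that start. The SMAD6 stretch is chr15:66701986-66702235 on the plus strand, and capitals mark GTCTAGAC, the palindromic SMAD binding element, with its first base at -12. Its last 8 bases lie in a GENCODE 29 exon.
SMAD7: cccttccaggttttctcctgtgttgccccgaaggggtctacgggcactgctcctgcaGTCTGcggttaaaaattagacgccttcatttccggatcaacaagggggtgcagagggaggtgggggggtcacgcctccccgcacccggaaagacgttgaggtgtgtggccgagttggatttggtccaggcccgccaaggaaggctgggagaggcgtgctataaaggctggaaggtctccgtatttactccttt
SMAD6: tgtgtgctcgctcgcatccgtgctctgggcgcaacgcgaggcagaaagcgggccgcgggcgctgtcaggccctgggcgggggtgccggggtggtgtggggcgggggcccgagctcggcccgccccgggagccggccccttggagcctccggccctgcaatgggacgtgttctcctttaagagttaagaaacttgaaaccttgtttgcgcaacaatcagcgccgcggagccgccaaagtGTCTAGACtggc
CAGAC or GTCTG stood in 11 of the 22 windows of the 10 genes, which belong to SMAD7, SMAD3, SKIL, TGIF1, ID3 and TGFB2, and in 38% of all 35116 windows of this length. GTCTAGAC, its own reverse complement and not overlapping a CAGAC core, was in the SMAD6 window alone among the windows of these genes, and in 0.182% of all windows. The GC-rich BMP element GGCGCC, also its own reverse complement, was in windows of SKIL and SMAD3 and in 16.4% of all windows. A match describes letters in a window and is not a bound site. Bases outside these 250-base windows were not searched. The SMAD7 window before chr18:48950965 lay wholly in GENCODE 29 exons (250 of 250 bases). Absence from the SMAD7 windows therefore does not describe the rest of its promoter.

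At the level of single genes, ID1 had the highest mean over the 24 libraries, 114 FPKM, followed by ID3 at 100.3 FPKM, TGIF1 at 83.8 FPKM and TGFB2 at 74.7 FPKM. SKIL averaged 53.0 FPKM, SMAD3 50.4 FPKM, ID2 44.7 FPKM and SMAD7 23.7 FPKM. TGFB1, at 5.28 FPKM, and SMAD6, at 4.53 FPKM, had the lowest levels. The genes differed in how far their 8 group means spread. The highest group mean was 9.04 times the lowest for SMAD6, 8.38 times for SMAD7, 5.35 times for ID3 and 4.77 times for ID2, but 1.79 times for SMAD3 and 1.74 times for TGIF1. The lowest mean of SMAD7, SMAD6, SMAD3, TGIF1, ID1, ID2 and ID3 was in the miR-186 clones in 100 nM iAs at week 29.

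Between weeks, several feedback and ID genes were lower at week 29 than at week 12, and SMAD7 had the lowest log2 difference in each construct and dose. Of the 10 genes, 4 fell in miR-186 clones in 100 nM iAs (SMAD7, SMAD6, ID2 and ID3) and none rose, where 12.2% of all genes tested passed and 5.07% fell. In 0 nM iAs 3 fell in these clones (SMAD7, ID2 and ID3), against 2.9% of all genes that passed and 1.33% that fell. SMAD7 was the 1 gene that fell in vector clones in 0 nM iAs, against 0.907% of all genes that passed and 0.822% that fell. For vector clones in 100 nM iAs limma called 0 of the 10, and 0.183% of all genes, with 0.162% lower. Without adjustment, at p under 0.05, the counts were 6, 5, 1 and 5 of 10 in the order miR-186 100 nM, miR-186 0 nM, vector 100 nM and vector 0 nM, where 31.9%, 24.6%, 14.5% and 9.48% of all genes passed. The later libraries all lay under the earlier ones for 5, 3, 3 and 5 of the 10 genes in the same order, as they did for 14.9%, 14.2%, 8% and 10.3% of all genes. The median log2 difference of the 10 genes was -0.86, -0.80, -0.54 and -0.55, again in that order. Over all genes tested the same medians were 0.02, 0.06, -0.02 and 0.00. Same-numbered libraries deviated together in 2 of these comparisons, and there a fit with the replicate number as a block called 2978 genes in place of 1732 in miR-186 clones in 100 nM iAs and 205 in place of 129 in vector clones in 0 nM iAs. Week cannot be told apart from anything else that differed between the harvests, such as passage. Keratinocyte markers were measured beside these values. The 7 summed to 1035 to 1931 FPKM at week 29 and 1533 to 2117 FPKM at week 12 in miR-186 clones in 100 nM iAs, which overlapped, and to 1029 to 1482 FPKM at week 29 and 1558 to 2812 FPKM at week 12 in 0 nM iAs, which did not. In vector clones the sums overlapped, at 2127 to 3200 FPKM at week 29 and 2420 to 4097 FPKM at week 12 in 100 nM iAs, and at 2103 to 2770 FPKM at week 29 and 2404 to 2838 FPKM at week 12 in 0 nM iAs. Of the 7 markers, DSG3 rose in miR-186 clones in 100 nM iAs and none fell between weeks in any comparison, and their part in the values of SMAD7, ID2 and ID3 was not tested.

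**Figure D1:**
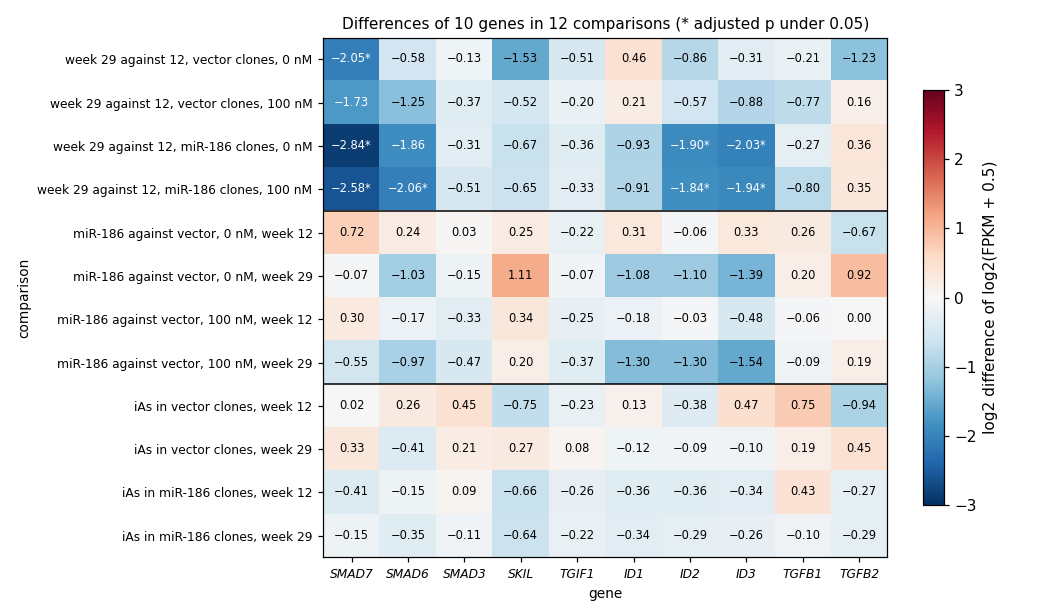
Log2 differences of the 10 genes (columns) in the 12 comparisons of 2 groups (rows), on log2(FPKM + 0.5), blue where the group named first is lower and red where it is higher, with asterisks at limma's adjusted p under 0.05. The 8 asterisks all stand in the rows of week 29 against week 12, the deepest being SMAD7 at -2.84 in miR-186 clones in 0 nM iAs.

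SMAD7 (ENSG00000101665, GRCh38 chr18:48919853-48952052, minus strand) encodes an inhibitory SMAD that occupies activated receptors and recruits ubiquitin ligases to them. At week 29 miR-186 clones in 100 nM iAs held 4.04, 6.98 and 7.90 FPKM of it, against 33.4, 57.0 and 30.7 FPKM at week 12. The highest of the 3 later libraries lay well under the lowest of the earlier ones. The log2 difference was -2.58 ± 0.39, or 5.98-fold lower (adjusted p = 0.0013). The levels in 0 nM iAs were 7.02, 9.34 and 4.75 FPKM at week 29, against 55.3, 64.7 and 38.5 FPKM at week 12. Again no library crossed over, and the difference was -2.84 ± 0.39, or 7.15-fold lower (adjusted p = 6.03e-04). Both calls remained with each of the 12 libraries of these comparisons left out in turn, at adjusted p of up to 0.0154, and under the 9 other alternatives.

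SMAD7 also stood lower in vector clones in 100 nM iAs, at 9.15, 15.2 and 5.42 FPKM at week 29, against 37.3, 41.4 and 20.2 FPKM at week 12. The groups did not overlap, yet the difference of -1.73 ± 0.39 did not pass (adjusted p = 0.0689). In 0 nM iAs the vector clones held 7.08, 10.6 and 4.86 FPKM at week 29, against 25.1, 48.8 and 24.7 FPKM at week 12. These groups did not overlap either, and the gene fell 4.13-fold, by a log2 difference of -2.05 ± 0.39 (adjusted p = 0.0107). That call was lost when only these 2 groups were fitted (adjusted p = 0.0707), without replicate 2 of week 12 (0.111), or without replicate 1 (0.0579) or replicate 3 (0.0863) of week 29, the log2 difference staying between -2.31 and -1.73. The value in 100 nM iAs passed without replicate 3 of week 12 (adjusted p = 0.0206) or replicate 2 of week 29 (0.0288). Leaving out other libraries gave it an adjusted p of up to 0.434.

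Over both constructs and doses, the 12 week-29 libraries held 4.04 to 15.2 FPKM of SMAD7 (median 7.05) and the 12 week-12 libraries 20.2 to 64.7 FPKM (median 37.9). All 12 later libraries thus lay under all 12 earlier ones, which was so for 42 of the 14228 genes tested (0.295%). None of the other 9 genes separated the weeks in this way. The change of SMAD7 between weeks was not shown to differ between constructs: miR-186 minus vector, the difference of log2 differences was -0.85 ± 0.55 in 100 nM iAs (adjusted p = 1) and -0.79 ± 0.55 in 0 nM iAs (adjusted p = 0.479). In the order of its 8 group means, all 4 week-12 groups came first, and the one gap between neighbours whose libraries did not overlap was that between the weeks.

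SMAD6 (ENSG00000137834, chr15:66702228-66782848, plus strand), the inhibitory SMAD best known for restraining BMP signalling, was lower and more scattered. It stood at 1.28, 0.864 and 0.723 FPKM at week 29 in miR-186 clones in 100 nM iAs, against 4.59, 8.40 and 4.21 FPKM at week 12. The groups did not overlap, and SMAD6 fell by 2.06 ± 0.66 on the log2 scale, 4.16-fold (adjusted p = 0.0466). This call lies close to the threshold: it was lost with a pseudocount of 1 (adjusted p = 0.0554), with no filter on low values (0.102), with a correction for GC content (log2 difference -1.62, adjusted p = 0.149) and without any 1 of the 6 libraries (up to 0.218). The values in 0 nM iAs were 0.987, 3.09 and 0.655 FPKM at week 29, against 8.50, 8.57 and 3.09 FPKM at week 12. Replicate 2 of week 29 reached the level of replicate 3 of week 12, and the difference of -1.86 ± 0.66 did not pass (adjusted p = 0.105). In vector clones the weeks overlapped at both doses. SMAD6 was 1.72, 4.52 and 1.51 FPKM at week 29, against 7.09, 17.0 and 1.78 FPKM at week 12, in 100 nM iAs, and 2.01, 6.69 and 2.39 FPKM at week 29, against 3.66, 12.7 and 2.72 FPKM at week 12, in 0 nM iAs. Replicate 2 was the highest of the 3 in 7 of the 8 SMAD6 groups and replicate 3 the lowest in 7.

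**Figure D2:**
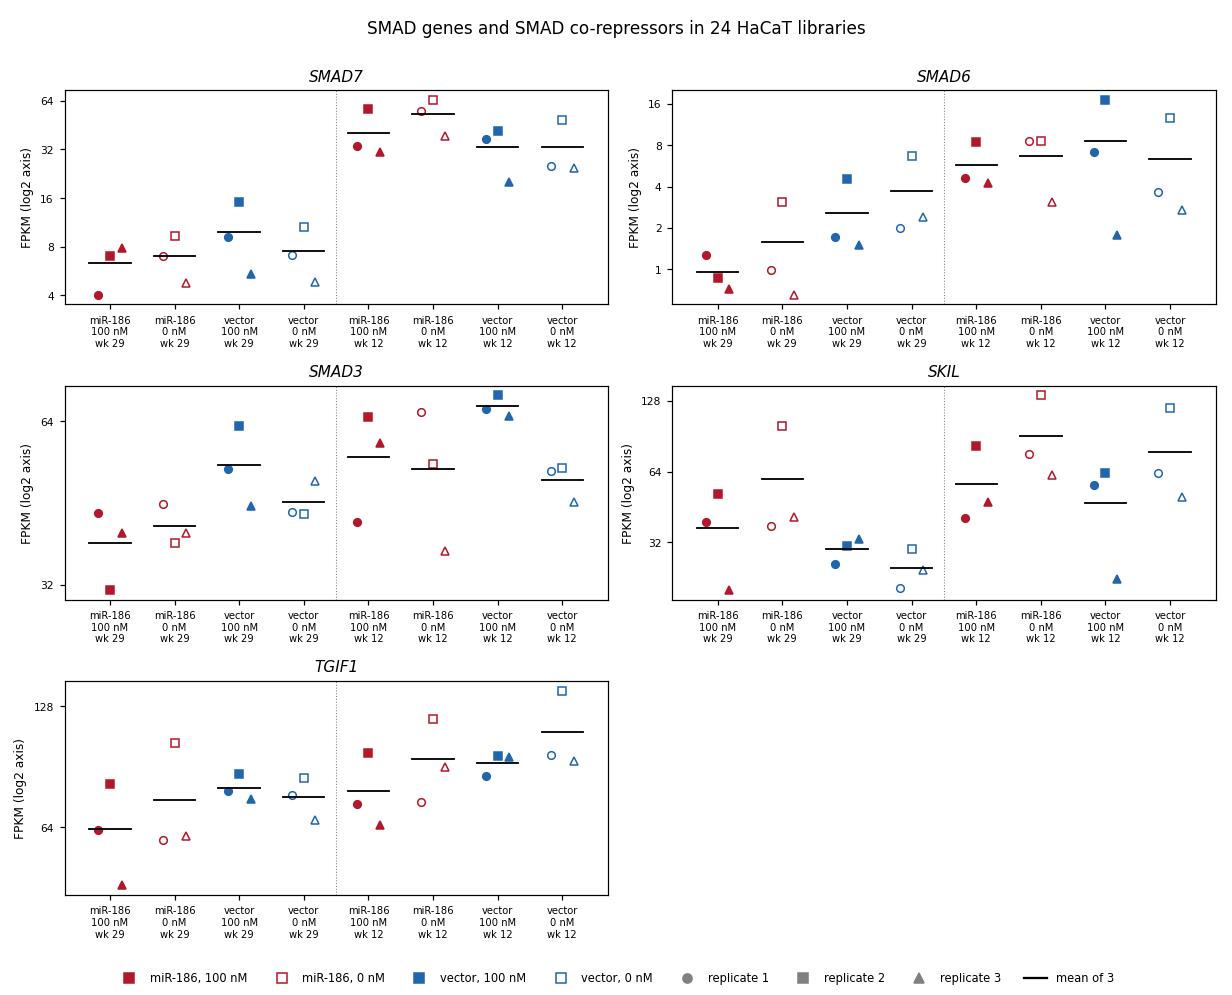
FPKM of SMAD7, SMAD6, SMAD3, SKIL and TGIF1 on log2 axes in the 24 libraries, by construct, dose and week, with week 29 on the left; filled marks are 100 nM iAs, open marks 0 nM, marker shapes the replicate number and black lines the mean of 3. The SMAD7 marks of week 29 (4.04 to 15.2) all lie under those of week 12 (20.2 to 64.7), whereas the SMAD3 and TGIF1 marks overlap.

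SMAD3 (ENSG00000166949, chr15:67063763-67195195, plus strand), the receptor-regulated SMAD that carries the TGF-beta signal, varied little. It ranged between 31.3 and 71.4 FPKM over the 24 libraries. Its lowest group was that of miR-186 clones in 100 nM iAs at week 29, with 43.4, 31.3 and 39.9 FPKM, against 41.8, 65.0 and 58.4 FPKM at week 12, which overlapped. The difference was -0.51 ± 0.19 (adjusted p = 0.0762), and it passed without replicate 1 of week 12 (-0.70, adjusted p = 0.0381). Leaving out other libraries gave an adjusted p of up to 0.329. Its highest difference with iAs was in vector clones at week 12, where 67.5, 71.4 and 65.5 FPKM in 100 nM iAs stood above 51.7, 52.5 and 45.4 FPKM in 0 nM iAs. The groups did not overlap there, as for 19.5% of all genes in this direction, and the difference of 0.45 ± 0.19 did not pass (adjusted p = 0.131).

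SKIL (ENSG00000136603, chr3:170357678-170396835, plus strand) encodes SnoN, a co-repressor that TGF-beta both degrades and induces. Vector clones in 0 nM iAs held 20.5, 30.0 and 24.3 FPKM at week 29, against 63.3, 119 and 49.9 FPKM at week 12. The weeks did not overlap, but the difference of -1.53 ± 0.45 did not pass (adjusted p = 0.14). Same-numbered libraries deviated together in this comparison. In a fit with the replicate number as a block shared by all 8 groups, SKIL passed as lower (adjusted p = 0.00712). At week 29 in 0 nM iAs, SKIL was 37.6, 100.1 and 41.0 FPKM in miR-186 clones, all above the 20.5, 30.0 and 24.3 FPKM in vector clones. That difference, 1.11 ± 0.45, did not pass without the block (adjusted p = 0.169) and did with it (0.0318). TGIF1 (ENSG00000177426, chr18:3411608-3459978, plus strand), a homeodomain repressor of SMAD2 and SMAD3, kept between 45.8 and 139.9 FPKM, and none of its comparisons of 2 groups passed. Its lowest difference, in vector clones in 0 nM iAs, was -0.51 ± 0.24 (adjusted p = 0.497), with 77.0, 84.9 and 66.5 FPKM at week 29 all under the 96.8, 139.9 and 93.7 FPKM at week 12. Replicate 2 held the highest TGIF1 value in 8 of 8 groups.

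Of the ID genes, ID2 and ID3 fell between weeks in miR-186 clones. ID3 (ENSG00000117318, chr1:23557918-23559794, minus strand) stood at 21.2, 25.4 and 45.0 FPKM at week 29 in miR-186 clones in 100 nM iAs, against 98.7, 113 and 128 FPKM at week 12. Its levels in 0 nM iAs were 28.9, 70.3 and 20.4 FPKM at week 29, against 163, 179.9 and 99.3 FPKM at week 12. The weeks did not overlap at either dose, and over both doses all 6 later miR-186 libraries lay under all 6 earlier ones, as did 3.57% of all genes. ID3 fell by 1.94 ± 0.43 on the log2 scale in 100 nM iAs (3.84-fold, adjusted p = 0.0128) and by 2.03 ± 0.43 in 0 nM iAs (4.08-fold, adjusted p = 0.0173). In vector clones in 100 nM iAs the weeks did not overlap either, as for 8% of all genes in this direction. ID3 stood there at 98.6, 131 and 48.3 FPKM at week 29, against 132, 225 and 133 FPKM at week 12. The difference did not pass. Vector clones in 0 nM iAs overlapped between weeks, with 96.8, 135 and 58.2 FPKM at week 29, against 98.5, 167 and 89.4 FPKM at week 12.

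ID2 (ENSG00000115738, chr2:8678845-8684453, plus strand) behaved like ID3 in miR-186 clones. It stood at 13.2, 10.5 and 20.5 FPKM at week 29 in 100 nM iAs, against 65.8, 41.4 and 51.9 FPKM at week 12, and fell by 1.84 ± 0.40 on the log2 scale (3.58-fold, adjusted p = 0.0121). At 0 nM ID2 held 11.3, 45.3 and 10.4 FPKM at week 29, against 74.8, 55.5 and 72.0 FPKM at week 12, and fell by 1.90 ± 0.40 (3.74-fold, adjusted p = 0.0159). Neither pair of groups overlapped, although replicate 2 of week 29 in 0 nM iAs stood well above its 2 companions. Vector clones in 100 nM iAs held 27.1, 34.1 and 49.6 FPKM at week 29, against 55.3, 62.1 and 44.2 FPKM at week 12, which overlapped. Those in 0 nM iAs held 26.7, 46.7 and 44.3 FPKM at week 29, all under the 56.4, 82.8 and 72.0 FPKM at week 12. Those vector differences of -0.57 ± 0.40 and -0.86 ± 0.40 did not pass (adjusted p = 0.49 and 0.502).

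The ID2 and ID3 differences kept their direction with 1 library left out, at -2.58 to -1.54 for ID2 and -2.53 to -1.65 for ID3 in 0 nM iAs, and at -2.10 to -1.63 for ID2 and -2.26 to -1.72 for ID3 in 100 nM iAs, but some calls were lost. In 0 nM iAs both were lost without replicate 1 of week 12 (adjusted p = 0.0875 for ID2 and 0.0938 for ID3), without replicate 1 of week 29 (0.0803 and 0.0752) or without replicate 3 of week 29 (0.1 and 0.102), and ID3 also without replicate 2 of week 12 (0.0913). In 100 nM iAs both were lost without replicate 2 of week 12 (0.0521 and 0.0861), and ID3 without replicate 1 of week 29 (0.061). Fitting only the 2 groups also ended both calls in 0 nM iAs (adjusted p = 0.0988 and 0.075), with the same differences of -1.90 and -2.03.

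ID1 (ENSG00000125968, chr20:31605283-31606515, plus strand) showed its widest gap between constructs at week 29. In 100 nM iAs it stood at 59.9, 42.7 and 68.9 FPKM in miR-186 clones, against 138, 165 and 117 FPKM in vector clones. In 0 nM iAs it stood at 60.3, 114 and 51.9 FPKM in miR-186 clones, against 148, 172 and 135 FPKM in vector clones. All 6 miR-186 libraries of week 29 lay under all 6 vector libraries, as for 1.96% of all genes, but neither difference passed. The log2 differences were -1.30 ± 0.33 in 100 nM iAs (adjusted p = 0.0665) and -1.08 ± 0.33 in 0 nM iAs (adjusted p = 0.082). At week 12 the constructs overlapped, with 96.6, 106 and 116 FPKM in miR-186 clones and 113, 183 and 82.3 FPKM in vector clones in 100 nM iAs, and 167, 159 and 93.5 FPKM in miR-186 clones and 101, 179 and 72.4 FPKM in vector clones in 0 nM iAs. Between weeks ID1 was lower in miR-186 clones, at -0.91 ± 0.33 in 100 nM iAs (adjusted p = 0.0715) and -0.93 ± 0.33 in 0 nM iAs (0.107), and its estimates in vector clones were above 0, at 0.21 and 0.46. In 100 nM iAs, where same-numbered libraries also deviated together, ID1 passed with the replicate number as a block (adjusted p = 0.0288).

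Between constructs, limma called 0 of the 10 genes at any dose or week, while 0.864% of all genes passed at week 29 in 100 nM iAs, 2.86% at week 29 in 0 nM, 2.02% at week 12 in 100 nM and 3.44% at week 12 in 0 nM. At an unadjusted p under 0.05 the counts were 4, 5, 0 and 0 of 10, where 14.5%, 19.9%, 14.5% and 20.1% of all genes passed. At week 29 in 100 nM iAs, ID1, ID2, ID3, SMAD6 and SMAD3 were lower in miR-186 clones with no overlap, where 6.8% of all genes separated downwards. Non-overlapping genes were 2 at week 12 in 100 nM, both lower (9.85% of all genes), and 1 higher (15.9%) and 1 lower (12.1%) at week 29 in 0 nM. At week 29 in 100 nM iAs, ID2 was 13.2, 10.5 and 20.5 FPKM in miR-186 clones, against 27.1, 34.1 and 49.6 FPKM in vector clones (-1.30 ± 0.40, adjusted p = 0.123). In the same groups ID3 was 21.2, 25.4 and 45.0 FPKM in miR-186 clones, against 98.6, 131 and 48.3 FPKM in vector clones (-1.54 ± 0.43, adjusted p = 0.0939). At week 29 in 0 nM iAs, replicate 2 of the miR-186 clones stood apart from its 2 companions, at 114 FPKM of ID1, 45.3 of ID2, 70.3 of ID3 and 100.1 of SKIL. Without it ID1, ID2 and ID3 passed there (adjusted p = 0.0474, 0.00493 and 0.0353). Leaving out other libraries gave adjusted p of up to 0.26, 0.408 and 0.296 for these genes. Replicate 2 of the miR-186 clones also had the highest sum of the 4 fibroblast markers, 95.2 FPKM against 3.09 and 6.18 FPKM in its companions, from LUM and DCN. With COL1A2 and PDGFRA near 0 everywhere, the part of this in the result was not tested.

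Same-numbered libraries deviated together in the 0 nM comparison at week 29. With the replicate number as a block shared by all 8 groups, 744 genes were called there in place of 407. Among them were SKIL as higher (adjusted p = 0.0318) and ID1 and ID3 as lower (0.0322 and 0.029). Between constructs the replicate number cannot mark a shared clone. In 100 nM iAs, ID3 passed without replicate 3 of the vector clones (adjusted p = 0.0336) or replicate 3 of the miR-186 clones (0.0484). Leaving out other libraries gave ID3 an adjusted p of up to 0.328 there. Whether the gap between constructs grew between weeks was also tested: the difference of differences was -1.39 ± 0.47 for ID1, -1.71 ± 0.61 for ID3 and 1.59 ± 0.61 for TGFB2 in 0 nM iAs, and none passed (adjusted p = 0.329, 0.335 and 0.336). Of the 10 genes, limma called 0 there and 0 in 100 nM iAs, and 0% of all genes passed in either. At an unadjusted p under 0.05 the counts were 3 and 2, where 13.4% and 2.54% of all genes passed. These comparisons share libraries with those between weeks. Keratinocyte markers also stood lower in the miR-186 clones at week 29: the 7 summed to 1035 to 1931 FPKM in miR-186 clones and 2127 to 3200 FPKM in vector clones in 100 nM iAs, and to 1029 to 1482 FPKM in miR-186 clones and 2103 to 2770 FPKM in vector clones in 0 nM iAs. KRT5 fell at both doses and DSG3 in 0 nM, 1 and 2 of the 7. At week 12 the sums were 1533 to 2117 FPKM in miR-186 clones and 2420 to 4097 FPKM in vector clones in 100 nM iAs, without overlap. In 0 nM iAs they overlapped, at 1558 to 2812 FPKM in miR-186 clones and 2404 to 2838 FPKM in vector clones. DSG3 was the 1 marker that passed at week 12, lower at both doses. The part of these markers in the ID values was not tested.

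**Figure D3:**
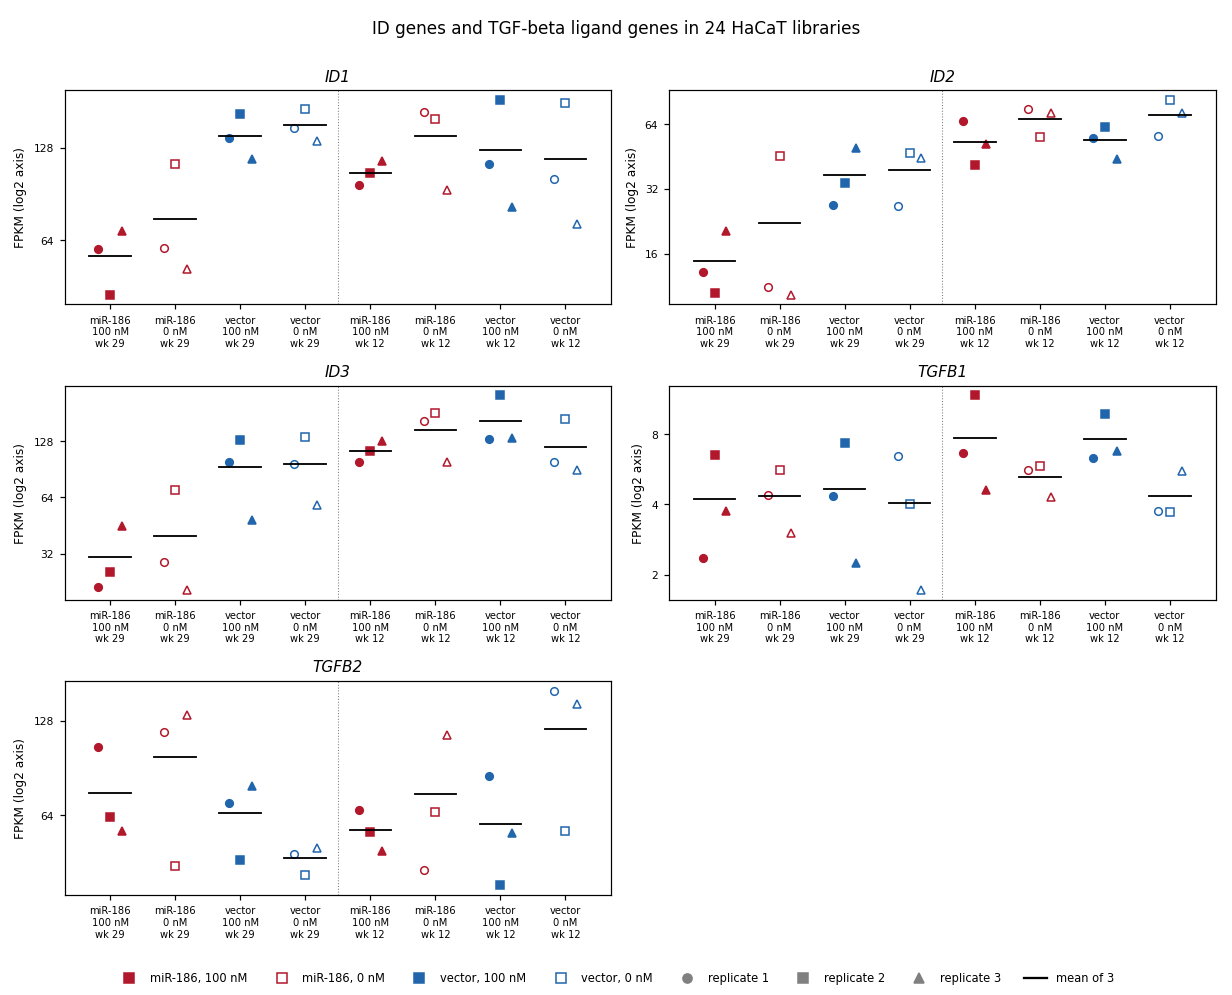
FPKM of ID1, ID2, ID3, TGFB1 and TGFB2 on log2 axes in the 24 libraries, by construct, dose and week, with week 29 on the left; filled marks are 100 nM iAs, open marks 0 nM, marker shapes the replicate number and black lines the mean of 3. The ID1 marks of miR-186 clones at week 29 (42.7 to 114) all lie under those of vector clones at week 29 (117 to 172), and the TGFB1 marks overlap between weeks.

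The ligands showed no change that passed. TGFB1 (ENSG00000105329, chr19:41301587-41353911, minus strand), the ligand most studied in epidermis, stayed between 1.72 and 11.8 FPKM. HNRNPUL1, on the opposite strand, overlaps it and averaged 52.8 FPKM, and because the strand setting of the counting is not given in the sources used here, TGFB1 levels are uncertain. Its widest difference with iAs was in vector clones at week 12, at 6.36, 9.82 and 6.77 FPKM in 100 nM iAs, all above 3.74, 3.70 and 5.56 FPKM in 0 nM iAs (0.75 ± 0.42, adjusted p = 0.238). TGFB2 (ENSG00000092969, chr1:218346235-218444619, plus strand), which signals through the same receptors, was more abundant per length than TGFB1 in every group and scattered between 38.2 and 159.9 FPKM. In vector clones in 0 nM iAs it stood at 48.3, 41.4 and 50.1 FPKM at week 29, all under the 159.9, 56.8 and 145 FPKM at week 12 (-1.23 ± 0.43, adjusted p = 0.306). In miR-186 clones in 0 nM iAs the order of the means was the other way round, with 118, 43.9 and 134 FPKM at week 29, against 42.9, 65.7 and 115 FPKM at week 12, and the groups overlapped (0.36 ± 0.43). Replicate 2 was never the highest TGFB2 library of its group and was the lowest in 5 of 8.

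With iAs, limma called 0 of the 10 genes in each of the 4 comparisons of 100 nM with 0 nM. Over all genes 1.38% passed in vector clones at week 12 and 0% in the other 3. At an unadjusted p under 0.05, 2 of the 10 passed in vector clones at week 12 (SMAD3 and TGFB2), where 29.3% of all genes did, and 0 in the others, where 3.9% (vector, week 29), 11% (miR-186, week 12) and 2.19% (miR-186, week 29) of all genes did. There TGFB2 stood at 85.6, 38.2 and 56.0 FPKM in 100 nM iAs and at 159.9, 56.8 and 145 FPKM in 0 nM iAs, which overlapped (-0.94 ± 0.43, adjusted p = 0.157). The log2 differences of the 10 genes lay between -0.64 and -0.10 in miR-186 clones at week 29, between -0.41 and 0.45 in vector clones at week 29, between -0.66 and 0.43 in miR-186 clones at week 12 and between -0.94 and 0.75 in vector clones at week 12. SKIL had the lowest of these estimates in both weeks in miR-186 clones, with 39.2, 51.4 and 20.1 FPKM in 100 nM iAs and 37.6, 100.1 and 41.0 FPKM in 0 nM iAs at week 29 (-0.64 ± 0.45, adjusted p = 0.999). Pooled over constructs and weeks, 0 of all genes tested had its 12 libraries in 100 nM iAs wholly above or below its 12 in 0 nM iAs. In the 4 tests of whether the iAs difference changed with construct or week, limma called 0 of the 10 genes and 0% of all genes. The one value at an unadjusted p under 0.05 was TGFB2 in vector clones, week 29 minus week 12 (1.39 ± 0.61, adjusted p = 0.656), where 7.44% of all genes passed unadjusted. The unadjusted shares of all genes were 3.09% in miR-186 clones, week 29 minus week 12, and 1.91% and 2.96% for miR-186 minus vector at weeks 29 and 12.

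The rest of the pathway was covered by 6 lists with 71 genes, of which 62 passed the filter. Between weeks the list with most calls was that of TGF-beta target genes, with 13 of 14 tested. Of these, 6 fell in miR-186 clones in 100 nM iAs (CCN2, CDKN1A, JUNB, COL1A1, COL7A1 and BHLHE40), where 5.07% of all genes fell. In 0 nM iAs 4 fell in the same clones (CCN2, CDKN1A, JUNB and BHLHE40), against 1.33% of all genes, and in vector clones in 0 nM iAs 3 fell (CCN2, CDKN1A and BHLHE40), against 0.822%. Vector clones in 100 nM iAs had no target that limma called, against 0.162% of all genes lower, and 6 had an unadjusted p under 0.05, as had 14.5% of all genes. The median log2 difference of the 13 was -0.57, -0.89, -0.57 and -0.52 in the order miR-186 100 nM, miR-186 0 nM, vector 100 nM and vector 0 nM.

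CCN2, a matricellular protein, stood at 5.99, 3.93 and 5.76 FPKM at week 29 in vector clones in 0 nM iAs, against 29.3, 51.2 and 29.6 FPKM at week 12. No library crossed over, and it fell by 2.67 ± 0.33 on the log2 scale (6.36-fold, adjusted p = 1.51e-04). JUNB, a component of the transcription factor AP-1, stood at 1.32, 3.997 and 1.27 FPKM at week 29 in miR-186 clones in 0 nM iAs, against 14.1, 20.1 and 3.89 FPKM at week 12. The highest later library stood slightly above the lowest earlier one, and JUNB fell by 2.17 ± 0.54 on the log2 scale (4.49-fold, adjusted p = 0.0356). CDKN1A, the cell cycle inhibitor p21, was lower in all 12 week-29 libraries (21.8 to 48.4 FPKM) than in the 12 of week 12 (56.2 to 100.0 FPKM). The same was so for 0.295% of all genes, and CDKN1A and BHLHE40 were pooled in this way after their values were seen. CDKN1A fell by 1.66 ± 0.24 in miR-186 clones in 0 nM iAs (adjusted p = 7.57e-04). BHLHE40, a transcriptional repressor, likewise stood at 15.5 to 52.5 FPKM at week 29 and at 63.2 to 143 FPKM at week 12. It fell by 1.76 ± 0.31 in miR-186 clones in 100 nM iAs and by 1.88 ± 0.31 in 0 nM iAs (adjusted p = 0.00421 and 0.00277). The call of CCN2 in vector clones and those of CDKN1A and BHLHE40 in miR-186 clones, all in 0 nM iAs, were the 3 of 23 pathway calls, over all comparisons, that remained with each library left out in turn and under the 9 other alternatives.

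**Figure D4:**
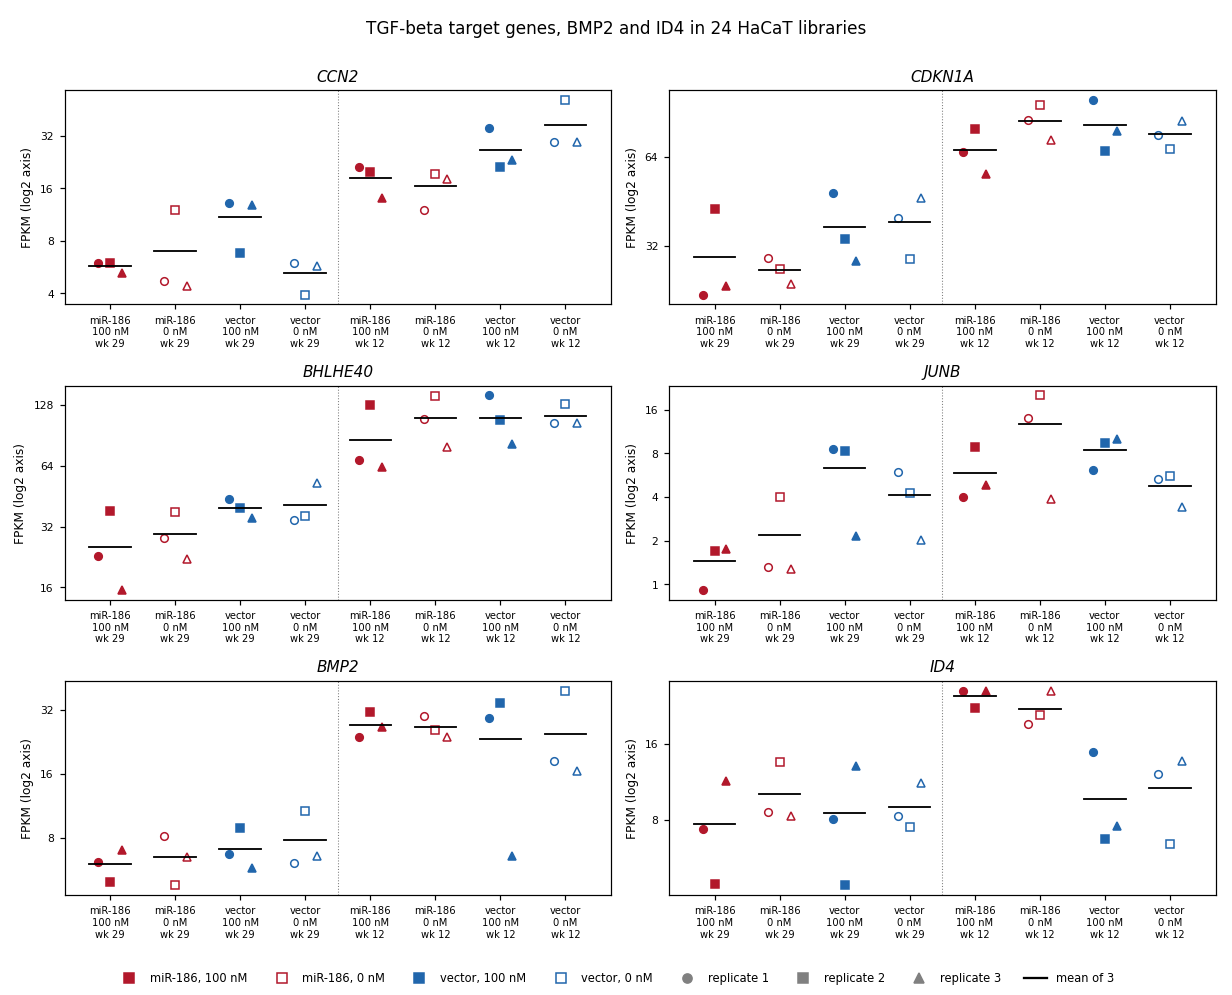
FPKM of the TGF-beta target genes CCN2, CDKN1A, BHLHE40 and JUNB and of BMP2 and ID4 on log2 axes in the 24 libraries, by construct, dose and week, with week 29 on the left; filled marks are 100 nM iAs, open marks 0 nM, marker shapes the replicate number and black lines the mean of 3. The CDKN1A marks of week 29 (21.8 to 48.4) lie under those of week 12 (56.2 to 100.0), and those of JUNB overlap between weeks.

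In the list of BMP and activin genes, with 11 of 16 tested, BMP2, a BMP ligand of epithelia, fell in miR-186 clones. It stood at 6.18, 4.94 and 6.99 FPKM at week 29 in 100 nM iAs, against 23.9, 31.1 and 26.6 FPKM at week 12 (-2.09 ± 0.42, 4.25-fold, adjusted p = 0.00939). The values in 0 nM iAs were 8.16, 4.78 and 6.47 FPKM at week 29, against 29.8, 25.8 and 23.8 FPKM at week 12 (-1.98 ± 0.42, adjusted p = 0.0173). ID4, the remaining ID gene, stood at 7.38, 4.45 and 11.4 FPKM at week 29 in 100 nM iAs, against 25.9, 22.1 and 25.9 FPKM at week 12 (-1.70 ± 0.37, adjusted p = 0.0121). Neither BMP2 nor ID4 overlapped between weeks in these groups, where 14.9% of all genes in 100 nM iAs and 14.2% in 0 nM iAs separated downwards. Among ligands and their activators, with 10 of 10 tested, FURIN, a protease that matures TGF-beta, fell in miR-186 clones in 0 nM iAs (-2.01 ± 0.53, adjusted p = 0.0459). THBS1, thrombospondin 1, an activator of latent TGF-beta, fell in vector clones in 0 nM iAs (-1.23 ± 0.29, adjusted p = 0.042). The calls of FURIN and THBS1 were each lost without any 1 of the 6 libraries compared and with no filter on low values. That of THBS1 was also lost with GC correction. SMAD5, among 4 of 5 other SMADs tested, rose in miR-186 clones in 100 nM iAs (0.70 ± 0.18, adjusted p = 0.0207). USP15, a deubiquitinase of the pathway, among 13 of 13 regulators tested, rose there too (0.85 ± 0.19, adjusted p = 0.0125). In that comparison 12.2% of all genes passed in either direction and 5.07% fell. The calls of SMAD5 and USP15 were lost with a fit on the compared groups alone, and that of SMAD5 also with GC correction, with or without the block. None of the 11 of 13 receptors and co-receptors tested passed between weeks.

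Between constructs, 2 of the 62 tested genes passed at week 12 in 0 nM iAs and 1 at week 29 in 0 nM iAs, no larger a share than the 3.44% and 2.86% of all genes that did. LTBP1, which tethers latent TGF-beta to the matrix, stood at 1.51, 0.801 and 1.32 FPKM in miR-186 clones at week 12 in 0 nM iAs, against 5.97, 3.86 and 7.88 FPKM in vector clones (-1.88 ± 0.40, adjusted p = 0.0117). SMURF2, a ubiquitin ligase that acts with SMAD7, was also lower there (-0.51 ± 0.14, adjusted p = 0.0442). THBS1 was higher in miR-186 clones at week 29 in 0 nM iAs, with 486, 291 and 567 FPKM against 196, 175 and 167 FPKM in vector clones (1.27 ± 0.29, adjusted p = 0.023). With iAs none of the 62 passed, with 14, 3, 1 and 0 at an unadjusted p under 0.05 in vector clones at week 12 and week 29 and in miR-186 clones at week 12 and week 29, where 29.3%, 3.9%, 11% and 2.19% of all genes passed.

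Genes whose pattern over the 24 libraries was most like that of each gene were ranked by Pearson r of log2(FPKM + 0.5), as a description, since libraries share clones, depth and composition. SMAD7 was most like CSRNP1 (0.961), FOSB (0.956) and SIK1 (0.951), and SMAD6 most like RIPK4 (0.955), MEGF9 (0.943) and PFKFB3 (0.942). ID2 was most like FOS (0.884), IER2 (0.866) and HES1 (0.844), and SKIL most like TMC7 (0.919), BAMBI (0.902), a decoy receptor of the pathway, and DUSP5 (0.891). RAB3D came first for ID3 (0.920), before ADIRF (0.918) and ASAP3 (0.914), and for ID1 (0.839), before the keratin genes KRT15 (0.836) and KRT1 (0.836). TGIF1 was most like H3-3A (0.942), CHMP1B (0.922) and SERTAD3 (0.906), and SMAD3 most like ST6GALNAC1 (0.879), PROM2 (0.875) and STAT6 (0.870). Of the ligands, TGFB1 was most like ZNF358 (0.898), PIK3R2 (0.895) and ISYNA1 (0.880), and TGFB2 most like MBNL2 (0.826), PGM2L1 (0.823) and SLC17A5 (0.789). Among the 10 genes themselves, ID1 and ID3 moved together both between group means and between libraries of a group, whereas ID2 and ID3 did so mainly between group means. The r of ID1 with ID3 was 0.840 over the 8 group means and 0.822 over the deviations of the 24 libraries from them, and that of ID2 with ID3 was 0.962 and 0.435. TGFB2 ran opposite to ID3 within groups, at -0.822.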

How the data were processed

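RNA from 24 HaCaT libraries was sequenced, per the labels' protocols, after mirVana isolation and TruSeq Stranded mRNA preparation, all samples being pooled and run together as paired-end reads. FPKM were made by the authors with STAR 2.6.0c and Cuffdiff 2.2.1 on hg38 (GRCh38), as the submitters' processing notes state. Which annotation release, strand setting or further scaling was used is not given in the sources used here. The deposited FPKM were taken unscaled; read counts were not used here and absolute depth is unknown.

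The 14228 genes averaging 0.5 FPKM or more were tested on log2(FPKM + 0.5). One limma 3.58.1 model (R 4.3.3) with trend and robust options covered all 8 groups, with Benjamini-Hochberg adjustment over all genes at 0.05. It gave 12 comparisons of 2 groups and 6 tests of how far such comparisons differ. On simulated data for miR-186 against vector in 0 nM at week 12, over 14228 genes, 65% of genes changed by a log2 of 1 and 93% changed by 2 were called, and 6.51% of calls were false. Genes were simulated independently, without library or clone effects shared between genes, so these rates need not hold for the real libraries. Loci are from GENCODE 29. No pair of libraries had identical values.

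Members and lists were chosen with earlier results of these data known. All 10 members are named, as are other pathway genes past the threshold in any comparison, with values for up to 4 per list and comparison, and the genes most like each member; some other genes are not reported here. CDKN1A and BHLHE40 were pooled over groups, and overlapping genes named, after their values were seen.

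Whether the replicate number pairs libraries was checked from correlations of deviations from group means, across genes. Every number exceeded 0.1 in 4 of the 12 comparisons: iAs in vector clones at week 29 (0.49, 0.46 and 0.62), constructs in 0 nM at week 29 (0.21, 0.23 and 0.20), weeks in vector clones in 0 nM (0.31, 0.52 and 0.17) and weeks in miR-186 clones in 100 nM (0.34, 0.41 and 0.39). There the number was taken to pair the libraries, from the data and not the labels. The block itself was fitted over all 24 libraries, with 1 effect per replicate number shared by all groups. It is therefore not a paired test of 2 groups, and it draws on groups whose same-numbered libraries did not deviate together. Alternatives were another pseudocount (0.1 or 1), no filter or a mean of at least 1 FPKM, median ratio scaling, a spline correction for GC content, the replicate block with and without it, a fit on the compared groups alone, and leaving out each library.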

Additional observations from a re-analysis of the deposited data

How the results depend on the processing

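No alternative turned the direction of a call. SMAD7 kept its call between weeks in miR-186 clones under every alternative tried, at log2 differences of -3.05 to -2.16. The number of the 10 genes called between weeks moved as follows. In vector clones in 0 nM, where 1 was called, it was 2 with the replicate block, 2 with block and GC correction, 0 with a fit on the compared groups alone and 0 to 1 with 1 library left out. In vector clones in 100 nM (0 called) it was 1 with the block, 1 with block and GC correction and 0 to 1 with 1 library left out. With the block SMAD7 passed (adjusted p = 0.00204), though the replicate number was not found to pair libraries there. In miR-186 clones in 0 nM (3 called) the number called was 5 with the block and 5 with block and GC correction. It was 1 with the compared groups alone and 1 to 3 with 1 library left out. In miR-186 clones in 100 nM (4 called) it was 1 to 4 with 1 library left out and up to 6 otherwise. Of these 4, SMAD6 lost its call with a pseudocount of 1, with no filter on low values and with GC correction. Between constructs at week 29 in 0 nM (0 called) the number called was 3 with the block, 2 with block and GC correction and 0 to 3 with 1 library left out. In 100 nM at week 29 (0 called) it was 2 with the block, 1 with block and GC correction and 0 to 1 with 1 library left out. The other 12 comparisons stayed at 0 throughout, and the replicate block changed no call there. Pairing by replicate number was not found between weeks in vector clones in 100 nM (correlations of -0.14, 0.29 and -0.24) or miR-186 clones in 0 nM (0.09, 0.42 and 0.34). Nor was it found between constructs in 100 nM at week 29 (-0.42, 0.38 and -0.17), so the block counts of these comparisons rest on no pairing.

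Counts over all genes moved more. Over the 9 alternatives other than leaving out a library they ran, between weeks, from 103 to 2978 (1732 as reported) in miR-186 clones in 100 nM, from 101 to 1271 (412) in miR-186 clones in 0 nM, from 0 to 259 (26) in vector clones in 100 nM and from 67 to 271 (129) in vector clones in 0 nM. Between constructs they ran from 13 to 339 (123) and from 153 to 839 (407) at week 29 in 100 and 0 nM, and from 24 to 818 (287) and from 107 to 1159 (490) at week 12 in 100 and 0 nM. For iAs they ran from 0 to 1362 (197) in vector clones at week 12, and up to 3 and 19 (0 each) in miR-186 clones at weeks 29 and 12. Fewer libraries entered the fits on the compared groups alone, and the cause of the other moves was not tested. Of the 23 pathway calls, 8 were kept under all 9 of these alternatives, chosen for them after seeing the data, and 3 also with each library left out. Depth is unknown, so the counting error behind low values, such as SMAD6 near 1 FPKM at week 29 in miR-186 clones, could not be given.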
